A study of Mus musculus with 2 samples.

Results

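The S100 genes S100a8, S100a9, S100a4, S100a6, S100a10, S100a11, S100a1 and S100a13 were taken from the expression matrix by their symbols, and all 8 were found among its 27809 genes. Their levels were described in leukocytes of the mouse heart, by group and by cell class. CD45+ cells, which are leukocytes, had been isolated from hearts 1 week after sham surgery or after TAC. TAC is transverse aortic constriction, in which a suture narrows the aorta and the left ventricle works against raised pressure. By the study's methods the mice were male, 8 weeks of age and on a C57BL/6 background. The purchased mice were C57BL/6N, and no substrain was given for the CD3e-/- mice. The 5 groups were WT sham, CD3e-/- sham, WT TAC, CD3e-/- TAC and WT mice that had TAC and were given an antibody to CD8, called here the group labelled CD8-depleted TAC. Lists of 5 values follow this order. The germline lack of CD3e removes T cells of every kind, so the CD3e-/- mice differ from the antibody-treated mice in more than their CD8+ T cells. Cells of each group carried a hashtag (a tag that marks the group of a cell), and all cells went into 1 pooled library, so each group was 1 sample and no difference between groups could be tested. The number of hearts behind a hashtag was not given in the sources used here.

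S100 proteins are small proteins with a pair of EF hands, the loops that hold calcium, and most act as dimers. S100A8 and S100A9 pair to form calprotectin, which makes up much of the cytosol of neutrophils and acts as an alarmin (a signal of tissue damage) through TLR4 and the receptor RAGE once it is released. S100A4, S100A6, S100A10 and S100A11 bind targets inside the cell, among them annexins and non-muscle myosin, and are known from motile cells. S100A10 is the exception in the family, since its EF hands have lost the binding of calcium. S100A1 is known best from cardiomyocytes, and S100A13 takes part in the release of proteins that lack a signal peptide. The matrix counts RNA, so neither calcium binding nor release was measured.

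All 8 genes lie on chromosome 3 of the mouse genome (RefSeq, GRCm38.p6). S100a8 spans bases 90669071 to 90670034 on the plus strand, and S100a9 spans bases 90692630 to 90695721 on the minus strand, so they face each other across 22595 bases. S100a4 (90603770 to 90606045) and S100a6 (90612894 to 90614414) are neighbours on the plus strand with 6848 bases between them, which hold S100a5. S100a1 (90511034 to 90514330, minus strand) and S100a13 (90514233 to 90524581, plus strand) start head to head and share 98 bases. S100a11 (93520496 to 93526288) and S100a10 (93555117 to 93564645) form a second cluster farther along the chromosome. The 250 bases upstream of the annotated start are shown for the pair found in the same cells, S100a8 and S100a9, and for S100a4 and S100a6, whose levels went together across cell classes. They read 5′ to 3′ on the strand of the gene, and capitals mark the TATA box (TATAAA) and the PU.1 motif (GAGGAAGT), each searched on both strands.
S100a8, chr3:90668821-90669070, plus strand: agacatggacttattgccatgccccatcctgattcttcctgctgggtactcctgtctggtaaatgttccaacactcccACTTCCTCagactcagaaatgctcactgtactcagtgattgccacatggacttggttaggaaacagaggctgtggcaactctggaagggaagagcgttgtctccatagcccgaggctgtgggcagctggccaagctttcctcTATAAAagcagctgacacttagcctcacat
S100a9, chr3:90695722-90695971, minus strand: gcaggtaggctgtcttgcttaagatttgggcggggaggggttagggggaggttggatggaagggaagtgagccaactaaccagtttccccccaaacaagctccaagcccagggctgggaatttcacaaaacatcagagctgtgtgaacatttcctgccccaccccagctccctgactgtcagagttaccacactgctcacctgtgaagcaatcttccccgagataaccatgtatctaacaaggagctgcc
S100a4, chr3:90603520-90603769, plus strand: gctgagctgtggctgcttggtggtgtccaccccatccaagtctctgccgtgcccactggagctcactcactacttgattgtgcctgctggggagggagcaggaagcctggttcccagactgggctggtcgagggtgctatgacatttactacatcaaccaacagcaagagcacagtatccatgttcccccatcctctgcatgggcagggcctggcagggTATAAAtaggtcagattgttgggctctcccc
S100a6, chr3:90612644-90612893, plus strand: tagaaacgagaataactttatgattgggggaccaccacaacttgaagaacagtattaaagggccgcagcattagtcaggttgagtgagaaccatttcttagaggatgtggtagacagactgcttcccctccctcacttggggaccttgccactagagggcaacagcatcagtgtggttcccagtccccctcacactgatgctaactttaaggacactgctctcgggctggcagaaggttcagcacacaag
The TATA box stood 30 to 25 bases before the start of S100a8 and 31 to 26 bases before that of S100a4, and it occurs in 12.4% of the 32851 upstream windows of this length. The PU.1 motif lay on the minus strand 172 to 165 bases before the start of S100a8 and occurs in 2.44% of the windows. The windows of S100a9 and S100a6 held neither. The C/EBP motif (TTGCNNNAA, 8.29% of windows) was not found in the windows of the 7 members that had one. An AP-1 motif (TGANTCA, 6.75% of windows) stood at 136 and at 38 bases before the start of S100a11, among 3 GC boxes (GGGCGG, 32.7% of windows). These matches describe letters, not bound sites.

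After cells with fewer than 500 genes or a mitochondrial share above 0.4 were left out, 5263 cells remained, namely 1000, 835, 1615, 919 and 894 in the 5 groups, and no cell barcode occurred in more than 1 group. Depth was uneven, with medians of 75442, 78372, 98869, 117788 and 98471 reads per cell. The matrix counts reads, and an error correction by the authors leaves a lowest value for many genes, below which a cell is listed at 0. This value was 25 reads for S100a8, 29 for S100a9, 10 for S100a4, 9 for S100a6, 8 each for S100a10 and S100a11, and 1 each for S100a1 and S100a13, so a listed 0 means fewer reads than that and not absence. Cells were gated on the CPM (reads per 1000000 reads of the cell) of single genes. The monocyte and macrophage gate (Csf1r and Lyz2) held 3429 cells, parted into an Ly6c2 gate (477 cells, the Ly6c-high monocytes), an Ace gate (220, the Ly6c-low monocytes), a Lyve1 gate (191, resident macrophages), a Ccr2 gate (1173) and the Ccr2-low rest (1368). The Csf3r gate held 21 cells, the Cd209a gate 396, the Cd79a gate 467 and the gate of T or NK cells 191, while 720 cells were in no gate. Markers that had not been used to gate were at least 2 times higher in the gate than in the mean of the other gates for 8 of 9 neutrophil genes in the Csf3r gate, all 6 of dendritic cells in the Cd209a gate, all 5 of B cells in the Cd79a gate, all 5 in the Ace gate, all 6 in the Lyve1 gate and 3 of 5 in the Ly6c2 gate. The limit of Ccr2 is the least sharp, with 741 cells within 1.5 times of it. In the gate of T or NK cells Cd3g was at 537, 26.8, 477, 0 and 469 CPM, low in both CD3e-/- groups, whereas Cd8a was listed in 7 of 38 such cells of WT TAC and in 4 of 32 of the group labelled CD8-depleted TAC, so a loss of CD8+ T cells was not detectable with this number of cells.

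S100a8 and S100a9 were listed in few cells, and in the same ones. Reads of either gene occurred in 73 of the 5263 cells, of which 53 had both, 13 had S100a8 alone and 7 had S100a9 alone. None of the 1000 WT sham cells had a read of either (95% Clopper-Pearson interval up to 0.368%). The share was 0.719% of CD3e-/- sham cells (6 cells, 0.264% to 1.56%), 1.24% of WT TAC cells (20, 0.758% to 1.91%), 2.72% of CD3e-/- TAC cells (25, 1.77% to 3.99%) and 2.46% of CD8-depleted TAC cells (22, 1.55% to 3.70%). The order therefore ran from WT sham to CD3e-/- TAC, and the intervals of the 3 TAC groups overlapped between CD3e-/- TAC and the group labelled CD8-depleted TAC, while that of WT TAC reached only the low ends of both. All intervals here cover counting error alone and not the spread between hearts.

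Summed over all cells of a group, S100a8 was at 0, 68.0, 47.7, 84.3 and 118 CPM. S100a9 was at 0, 92.7, 55.9, 107 and 127 CPM. Both genes were thus lowest in WT sham and highest in the group labelled CD8-depleted TAC, but a few cells carried these sums, and in CD3e-/- sham a single cell held 33.5% of the S100a8 reads.

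Most of the S100a8 and S100a9 reads came from cells with the RNA of neutrophils. Of the neutrophil markers Cxcr2, Retnlg, Mmp9, Ly6g, Il1r2, Trem1, Hdc, Ngp and Ltf, at least 3 reached 100 CPM in 65 cells, a definition set after the values had been seen and one that uses no S100 gene. These neutrophil-marker cells made up 0, 0.719%, 0.991%, 2.07% and 2.68% of the 5 groups (0, 6, 16, 19 and 24 cells). The study enriched leukocytes on a Percoll gradient before the CD45 selection, and no kept cell had fewer than 22311 reads. The shares therefore describe the cells captured and kept, not the neutrophil content of the hearts. With 0.681% of all reads the neutrophil-marker cells held 97.9% of the S100a8 reads and 99.2% of the S100a9 reads, and 56 of the 65 had at least 1 of the 2 genes. S100a8 was at 9093 CPM and S100a9 at 11047 CPM over these cells. In the remaining 5198 cells, 17 had reads of either gene, the highest at 1137 CPM for S100a8 and 754 CPM for S100a9. The 2 sets of cells overlapped little in level, since the neutrophil-marker cells with S100a8 ran from 307 to 55848 CPM with a median of 12252 CPM.

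Among the neutrophil-marker cells with reads, the S100a8 level overlapped between the groups. It ran from 4331 to 33038 CPM in CD3e-/- sham (median 16456), from 307 to 35956 CPM in WT TAC (median 14597), from 1387 to 43264 CPM in CD3e-/- TAC (median 7961) and from 1248 to 55848 CPM for the group labelled CD8-depleted TAC (median 9257). Each of these 4 ranges overlapped the 3 others. Over the 50 neutrophil-marker cells with both genes, the log2 CPM of S100a8 and S100a9 went together with a Pearson correlation of 0.894 and a Spearman correlation of 0.911, a description over cells that share a library and a depth scale.

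**Figure D1:**
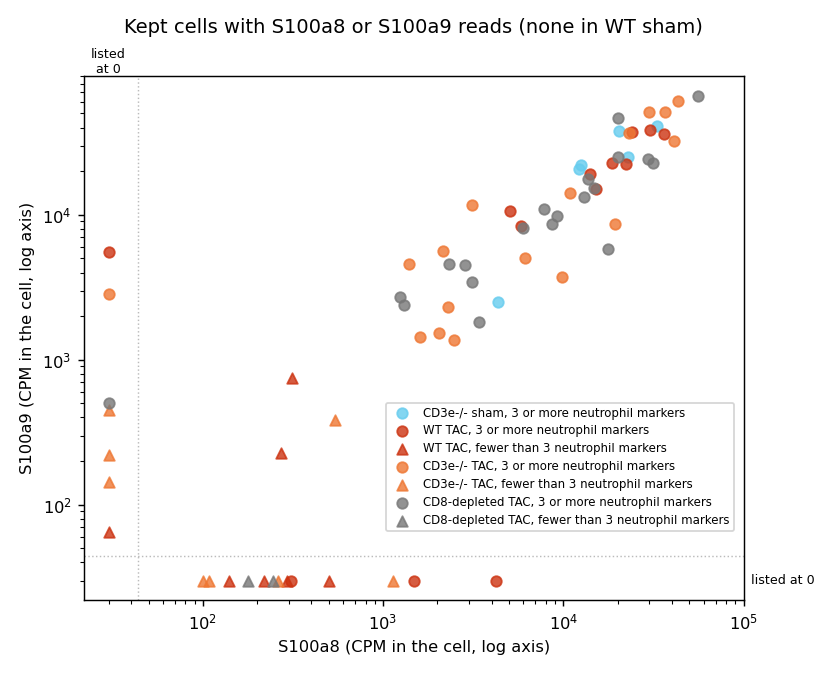
Each point is 1 of the 73 kept cells with S100a8 or S100a9 reads, by its S100a8 level (x axis, CPM, log scale) and its S100a9 level (y axis, CPM, log scale), with cells listed at 0 for a gene set at the edge; colours are groups, circles have 3 or more neutrophil markers at 100 CPM and triangles fewer. The circles run up a diagonal to 55848 CPM of S100a8, the triangles stay at or below 1137 CPM of S100a8, and no point belongs to WT sham.

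The Csf3r gate, which asks for Csf3r (the receptor of G-CSF, the growth factor of neutrophils) and for low Csf1r, caught part of these cells. Its 21 cells (0, 1, 7, 7 and 6) were at 15014 CPM of S100a8 and 17554 CPM of S100a9, with 18 of 21 cells listed for either gene taken alone, and held 35.9% of the S100a8 reads and 35.0% of the S100a9 reads. A further 31.6% and 34.5% lay in cells without a gate, and 29.6% and 27.7% in the Ccr2-low gate. Of the 56 neutrophil-marker cells with S100a8 or S100a9, 22 were ungated, 15 lay in the monocyte and macrophage gate, which asks for Csf1r at 200 CPM, and 19 lay in the Csf3r gate. With a gate that asks only for Csf3r at 500 CPM and above Csf1r, chosen after the data had been seen, the shares were 95.6% for S100a8 and 97.7% for S100a9. S100a8 and S100a9 were listed in none of the cells of the Lyve1, Cd209a and Cd79a gates and of the gate of T or NK cells. In the Cd79a gate, where a reading would be background, 0 of 467 cells allow a share of up to 0.787%, at a median of 47251 reads per cell against 51646 in the neutrophil-marker cells.

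In the monocyte and macrophage gate, S100a8 was at 0, 36.3, 26.0, 20.8 and 70.8 CPM and S100a9 at 0, 45.0, 30.6, 18.3 and 81.8 CPM. Only 26 and 21 of the 3429 cells had reads. Without the 19 neutrophil-marker cells of the gate the levels over all groups fell to 2.02 CPM for S100a8 (13 cells) and 0.852 CPM for S100a9 (6 cells), against 30.8 and 34.7 CPM with them. What these 19 cells are was not tested, and they cannot be told apart from doublets that may remain in the matrix.

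Pooled over groups and gates, the neutrophil-marker cells differed from the rest of the monocyte and macrophage gate over other S100 genes. S100a11 was at 2171 CPM in them and listed in 63 of 65 cells, against 395 CPM in the monocyte and macrophage gate without them. S100a6 was at 1385 CPM (57 of 65 cells), against 657 CPM. S100a4 was at 465 CPM in them, against 765 CPM, and S100a10 at 372 CPM, against 460 CPM. Each was listed in 11 of 65 cells, a share that also reads the depth, since the neutrophil-marker cells had a median of 51646 reads and the other cells of that gate 97787. The pool is mixed. The macrophage genes Adgre1, C1qa, C1qb, Mertk and Fcgr1 summed to 0, 43.1, 2031 and 516 CPM in the neutrophil-marker cells of CD3e-/- sham, WT TAC, CD3e-/- TAC and the group labelled CD8-depleted TAC. S100a10 was listed in 4 of the 46 neutrophil-marker cells outside the monocyte and macrophage gate (243 CPM) and in 7 of the 19 inside it (517 CPM). S100a4 was listed in 2 of the 46 outside that gate (203 CPM) and in 9 of the 19 inside it (759 CPM), and in none of the 21 cells of the Csf3r gate. At the median depth of the Csf3r gate, 44567 reads, the lowest listed value of S100a4 corresponds to 224 CPM, so a lower level could not be seen.

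**Figure D2:**
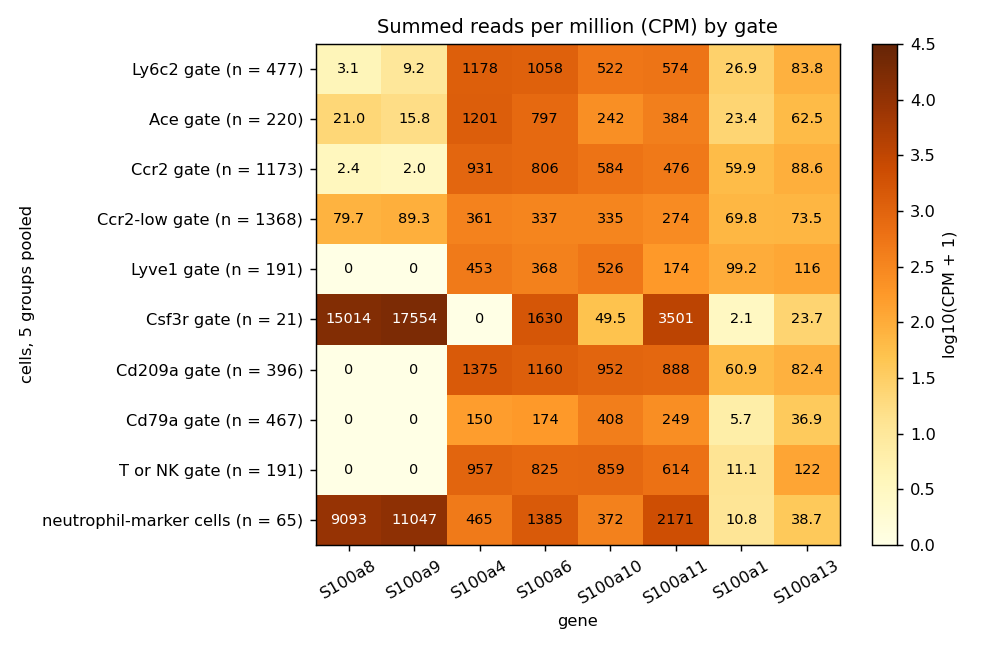
Level of each S100 gene (columns) in each gate and in the neutrophil-marker cells (rows, with the number of cells), all 5 groups pooled; numbers are CPM and colour is log10(CPM + 1). S100a8 and S100a9 stand out in the Csf3r gate (15014 and 17554 CPM) and the neutrophil-marker cells, S100a4 is listed at 0 in the Csf3r gate, and S100a4 and S100a6 are high in the Cd209a, Ly6c2 and Ace gates. Levels are to be compared within a column, since genes were not scaled by length.

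S100a4, known as a marker of motile cells and as a partner of non-muscle myosin, was listed in 2686 of the 5263 cells. It was highest in the dendritic cells of the Cd209a gate (1375 CPM, 381 of 396 cells) and in the monocytes of the Ace gate (1201 CPM, 206 of 220) and the Ly6c2 gate (1178 CPM, 439 of 477). The gate of T or NK cells (957 CPM) and the Ccr2 gate (931 CPM) followed. Macrophages were lower, at 453 CPM in the Lyve1 gate and 361 CPM in the Ccr2-low gate, and the B cells of the Cd79a gate were lowest among the larger gates with 150 CPM in 36 of 467 cells. Single cells varied widely within a gate. The median cell was at 1102 CPM in the Ly6c2 gate, at 520 CPM in the Ccr2 gate and at 0 in the Ccr2-low and Lyve1 gates, where 22.3% and 44.5% of cells were listed.

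S100a6, also called calcyclin, had a similar order of gates, except for the Ace gate, which was second for S100a4 but followed the Ly6c2, T or NK and Ccr2 gates for S100a6. It was at 1160 CPM in the Cd209a gate, 1058 CPM in the Ly6c2 gate, 825 CPM in T or NK cells, 806 CPM in the Ccr2 gate and 797 CPM in the Ace gate. It was at 368 CPM in the Lyve1 gate, 337 CPM in the Ccr2-low gate and 174 CPM in the Cd79a gate. The genes also differed in the 21 cells of the Csf3r gate, all of which had S100a6 (1630 CPM) and none S100a4. Over the 1711 monocytes and macrophages with reads of both, log2 CPM gave a Pearson correlation of 0.568 and a Spearman correlation of 0.554.

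S100a10, the partner of annexin A2 in a complex that binds plasminogen at the cell surface, was highest in the Cd209a gate (952 CPM) and in T or NK cells (859 CPM). The Ccr2, Lyve1 and Ly6c2 gates lay close together at 584, 526 and 522 CPM, followed by the Cd79a gate at 408 CPM. Ly6c-low monocytes differed from Ly6c-high ones here, with 242 CPM in the Ace gate, while for S100a4 these gates were at 1201 and 1178 CPM. S100a11, a partner of annexin A1, had its highest level in the Csf3r gate (3501 CPM, 19 of 21 cells), then in the Cd209a gate (888 CPM), T or NK cells (614 CPM), the Ly6c2 gate (574 CPM) and the Ccr2 gate (476 CPM). The Lyve1 gate was lowest for S100a11 with 174 CPM, although for S100a4 it lay above the Ccr2-low gate. Cells without a gate were at 753 CPM of S100a11 and held 20.6% of its reads with 13.8% of all reads.

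S100a1 and S100a13 share their start region and were listed at low levels, and counts made without strand cannot be told apart over the 98 shared bases. S100a1 was highest in the Lyve1 gate (99.2 CPM), then in the Ccr2-low gate (69.8 CPM), the Cd209a gate (60.9 CPM) and the Ccr2 gate (59.9 CPM). It was lower in monocytes, with 26.9 CPM in the Ly6c2 gate and 23.4 CPM in the Ace gate, and lowest in B cells (5.66 CPM) and the Csf3r gate (2.06 CPM). The order of macrophages above monocytes was the reverse of that of S100a4. The summed level of 6 cardiomyocyte genes in the monocyte and macrophage gate was 47.4, 48.1, 27.3, 28.1 and 27.5 CPM, higher in both sham groups. S100a1 was at 57.8, 60.3, 50.2, 66.4 and 56.5 CPM there, lower after TAC in WT mice and higher after TAC in CD3e-/- mice. Whether RNA of cardiomyocytes adds to the S100a1 level was not tested. S100a13 varied least between gates, from 122 CPM in T or NK cells and 116 CPM in the Lyve1 gate to 36.9 CPM in the Cd79a gate and 23.7 CPM in the Csf3r gate.

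Between groups, the 6 members other than S100a8 and S100a9 differed by less than 2-fold in the monocyte and macrophage gate. S100a4 was at 649, 868, 688, 849 and 801 CPM. S100a6 was at 545, 733, 619, 718 and 682 CPM, and S100a11 at 320, 439, 392, 423 and 410 CPM. For these genes WT sham was the lowest of the 5 groups and CD3e-/- sham the highest. S100a10 had another order, with 494, 600, 413, 466 and 426 CPM, lower in all 3 TAC groups than in either sham group. S100a13 was at 80.5, 77.8, 79.5, 91.4 and 77.8 CPM. These are sums, in which deep cells weigh more. As a mean of single-cell CPM, S100a4 was at 444, 614, 577, 755 and 687 CPM, S100a11 at 232, 293, 341, 409 and 379 CPM, and S100a10 at 347, 386, 344, 385 and 368 CPM. WT sham stayed the lowest group for S100a4 and S100a11, CD3e-/- TAC became the highest, and the S100a10 levels of the sham and TAC groups interleaved.

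**Figure D3:**
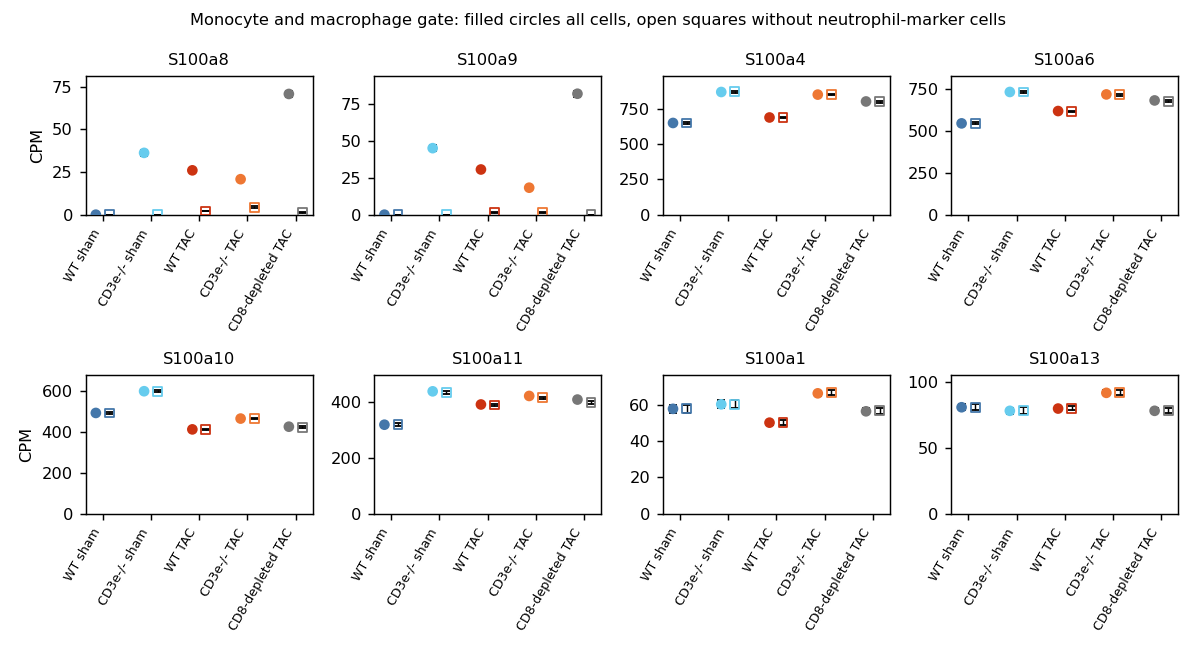
Level of each S100 gene (y axis, CPM) in the monocyte and macrophage gate of the 5 groups (x axis); filled circles are all cells of the gate, open squares the gate without neutrophil-marker cells, and bars are 95% Poisson intervals for counting error alone, mostly hidden by the symbols. S100a8 and S100a9 drop to near 0 without the neutrophil-marker cells, and the other 6 genes stay where they were, with S100a10 below both sham groups in every TAC group.

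The effect of pressure overload was read from WT TAC against WT sham and from CD3e-/- TAC against CD3e-/- sham, as log2 ratios of CPM with 10 CPM added. In WT mice 2 of the 8 members were past 2-fold, against 2.56% of the 3749 genes with at least 50 CPM in either group. These were S100a8 and S100a9, which were listed at 0 in WT sham and below 50 CPM in WT TAC. Of the 6 members that reached 50 CPM, none was past 2-fold, 3 were higher and 3 lower, with a median of 0.033 beside 0.043 for all genes. S100a11 had the highest ratio among them (0.29) and S100a10 the lowest (-0.25). In CD3e-/- mice 0 of the 8 were past 2-fold, against 3.5% of genes. The ratios of S100a8 and S100a9 there, -0.59 and -0.96, rested on 1 cell of CD3e-/- sham and turned to 1.29 and 1.20 when the cell with the most reads of the gene was left out in each group, and to 0.53 and 0.23 without neutrophil-marker cells, both chosen after the data had been seen. The 6 that reached 50 CPM had a median of -0.030 beside 0.061 for all genes. S100a10 was again the lowest of the 6, at -0.36, and S100a13 the highest, at 0.21. With the mean of single-cell CPM in place of the sum, the S100a10 ratios were -0.011 in WT and -0.0052 in CD3e-/- mice, so that the decrease was all but lost, while in WT mice S100a4 was at 0.37, S100a6 at 0.42 and S100a11 at 0.53. In CD3e-/- mice S100a4 (0.29), S100a6 (0.34) and S100a11 (0.47) then turned from slightly lower to higher. Genes induced by tissue dissociation moved with the surgery in the same cells, from 10123 and 8660 CPM in the sham groups to 4848, 3979 and 4804 CPM in the TAC groups, and their part in the S100a10 difference was not tested.

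Levels within a gate and over the whole gate of monocytes and macrophages did not move alike after TAC. In the Ccr2 gate all 6 members that reached 50 CPM were lower after TAC than after sham surgery, with a median log2 ratio of -0.41 in WT mice and -0.15 in CD3e-/- mice, beside 0.028 and 0.080 for all genes. None was past 2-fold there, against 2.82% and 3.89% of genes. S100a4 in this gate was at 1079 CPM in WT sham and 797 CPM in WT TAC, and at 1155 CPM in CD3e-/- sham and 982 CPM in CD3e-/- TAC. S100a10 was at 821 and 487 CPM in WT mice and at 865 and 593 CPM in CD3e-/- mice, so both TAC groups were below both sham groups for each gene. The mean of single-cell CPM kept this order, with 888, 924, 695 and 857 CPM of S100a4 and 653, 637, 422 and 503 CPM of S100a10 in WT sham, CD3e-/- sham, WT TAC and CD3e-/- TAC, but S100a11 in CD3e-/- mice turned, from 409 CPM after sham surgery to 481 CPM after TAC. In the Ly6c2 gate S100a4 was at 1559 and 1596 CPM in the sham groups (22 and 26 cells). It was at 1104, 1082 and 1257 CPM in the TAC groups (149, 148 and 132 cells), again lower in each TAC group. The Ccr2-low gate, with 1368 cells the largest, did not share this fall across the members. All 8 reached 50 CPM there, and in WT mice 7 were higher after TAC and 1 lower (median 0.34 beside 0.027). In CD3e-/- mice 5 were higher and 3 lower (0.20 beside 0.044). The 8 include S100a8 and S100a9, listed in 14 and 11 cells of the gate. In WT mice both are among the 7 higher, with 0 cells in WT sham and 3 cells each in WT TAC. In CD3e-/- mice both are among the 3 lower, and their level in CD3e-/- sham rests on 1 cell. These counts and medians are therefore not like those over 6 members in the Ccr2 gate. In the Ace gate 0 of 5 were higher in WT mice and 1 of 6 in CD3e-/- mice, namely S100a8, listed in 3 cells of CD3e-/- TAC and 0 of CD3e-/- sham.

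The share of reads in the Ly6c2 gate, where S100a4 is high, was larger at the same time, from 5.17% to 15.0% of the monocyte and macrophage reads in WT mice and from 7.02% to 22.8% in CD3e-/- mice. The share of the Ccr2-low gate, where S100a4 is low, went from 47.2% to 32.4% and from 38.3% to 32.9%. With the 5 gates weighted by their read shares in WT sham, an alternative chosen after the data had been seen, S100a4 would be at 649, 737, 562, 735 and 621 CPM. WT TAC then lay below WT sham for S100a4, at a log2 ratio of -0.20 in place of 0.083, and for S100a6, at -0.14 in place of 0.18, and S100a1 went from -0.17 to 0.011. S100a11 kept its direction, with 320 CPM in WT sham and 340 CPM in WT TAC, and so did S100a10, with 494 and 385 CPM.

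**Figure D4:**
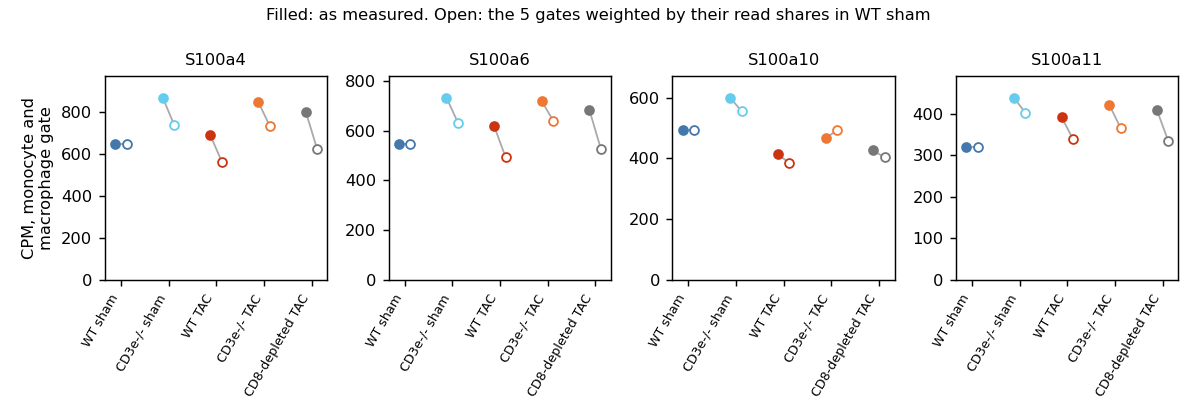
Level of 4 S100 genes (y axis, CPM) in the monocyte and macrophage gate of the 5 groups (x axis), as measured (filled circles) and with the 5 gates weighted by their read shares in WT sham (open circles). The open circles of S100a4 and S100a6 lie below the filled ones in every group but WT sham, where both coincide by construction, and put WT TAC (562 CPM of S100a4) below WT sham (649 CPM).

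**Figure D5:**
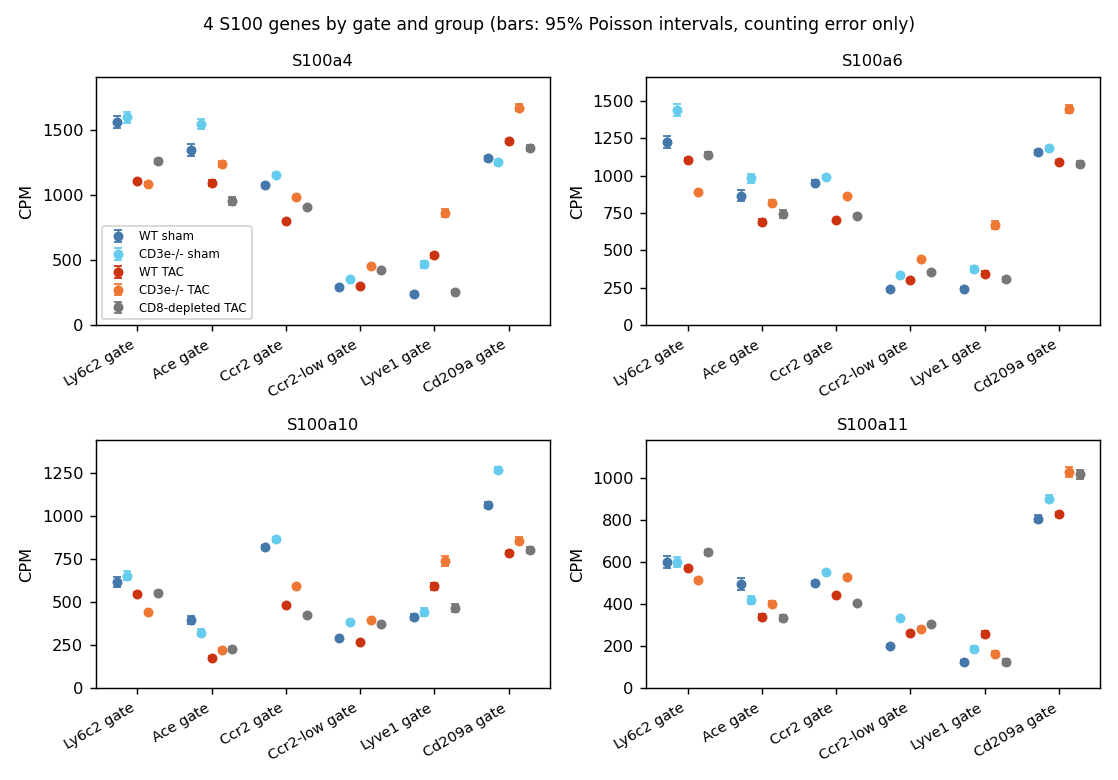
Level of 4 S100 genes (y axis, CPM) in 6 gates (x axis) and the 5 groups (colours), with 95% Poisson intervals for counting error alone. In the Ccr2 and Ly6c2 gates the sham groups stand above the TAC groups for S100a4, for example at 1079 against 797 CPM in the Ccr2 gate of WT mice, while in the Lyve1 gate WT sham is the lowest group for S100a4.

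The Lyve1 gate went the other way from the Ccr2 and Ly6c2 gates for S100a4. It was at 239, 466, 535, 860 and 254 CPM, with 69, 30, 50, 14 and 28 cells, so WT TAC was above WT sham and the group labelled CD8-depleted TAC was near WT sham. The log2 ratio was 1.13 for WT TAC against WT sham and -1.05 for the group labelled CD8-depleted TAC against WT TAC. S100a4 alone of the 6 members that reached 50 CPM was past 2-fold in each comparison, against 7.71% and 10.8% of genes, and a single cell held 34.5% of the S100a4 reads of this gate in WT TAC. S100a11 was at 124 CPM in WT sham and 257 CPM in WT TAC of the same gate, just under 2-fold, and a single cell held 50.4% of its reads in WT TAC. As a mean of single-cell CPM, S100a4 was at 216 CPM in WT sham and 314 CPM in WT TAC, less than 2-fold apart.

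The effect of the lack of T cells was read from CD3e-/- sham against WT sham and from CD3e-/- TAC against WT TAC. These comparisons share the groups WT sham and WT TAC with those above. After sham surgery 2 of the 8 members were past 2-fold, against 0.655% of the genes with at least 50 CPM in either group. These were S100a8 and S100a9, which rest on 1 cell of the gate in CD3e-/- sham and on none in WT sham. Both stayed under 50 CPM, and 0 of the 6 members that reached 50 CPM were past 2-fold. Of the 6 members that reached 50 CPM, 5 were higher in CD3e-/- sham, with a median log2 ratio of 0.35 beside -0.0048 for all genes, and S100a11 (0.45), S100a6 (0.42), S100a4 (0.41) and S100a10 (0.28) led. After TAC 0 of the 8 were past 2-fold, against 0.706% of genes, and all 6 were higher in CD3e-/- mice, with a median of 0.20 beside 0.019. S100a8 and S100a9 were at -0.22 and -0.52, and at 0.25 and 0.048 without neutrophil-marker cells. S100a1 (0.34) and S100a4 (0.30) had the highest ratios. Single gates differed. In the Ly6c2 gate all 5 members that reached 50 CPM were lower in CD3e-/- TAC than in WT TAC, with a median of -0.31 beside -0.024. All 6 that reached 50 CPM were higher in the Ace gate (0.25) and in the Ccr2 gate (0.29), and 6 of 8 in the Ccr2-low gate (0.45). In the Ace gate the 6 include S100a8, listed in 3 cells of CD3e-/- TAC. The 2 lower members of the Ccr2-low gate were S100a8 and S100a9, listed in 3 cells each of WT TAC, so the other 6 were all higher. After sham surgery the medians were 0.017 (Ly6c2), -0.23 (Ace), 0.097 (Ccr2), 0.43 (Ccr2-low) and 0.32 (Lyve1). That of the Ccr2-low gate again includes S100a8 and S100a9, which rest on 1 cell of CD3e-/- sham. S100a4 was listed in 36.3%, 47.1%, 54.6%, 66.2% and 59.2% of the cells of the monocyte and macrophage gate. This order follows the median reads of these cells (74848, 80294, 99616, 128296 and 104975) more than the summed CPM. With each cell thinned to 20000 reads the shares were 36.1%, 46.9%, 54.0%, 65.8% and 58.4%, in the same order. Thinning starts from the listed reads, whose lowest value for S100a4 was 10, so it cannot restore reads in cells listed at 0. The part of depth in this order was not tested, and no difference between groups was read from these shares.

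The group labelled CD8-depleted TAC differed from WT TAC by more than 2-fold in S100a8 (log2 ratio 1.17) and S100a9 (1.18), 2 of the 8 members against 0.3% of genes. These rested on 6 cells with S100a8 among 623 in the group labelled CD8-depleted TAC and on 8 among 1113 in WT TAC. Without neutrophil-marker cells the ratios were -0.12 and -0.18, and 0 of the 6 members that reached 50 CPM were past 2-fold, against 0.218% of genes. S100a4 was at a ratio of 0.22 and S100a6 at 0.14, and S100a10, S100a11 and S100a13 at 0.044, 0.062 and -0.028.

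The 7 other S100 rows of the matrix, S100a16, S100a2, S100a3, S100a5, S100a7a, S100b and S100pbp (the last a binding protein, not a member of the family by structure), stayed under 50 CPM in the monocyte and macrophage gate of every group, below the minimum for a ratio. Of 21 genes whose products bind, release or sense S100 proteins, 16 or 17 reached 50 CPM in a comparison. In CD3e-/- TAC against CD3e-/- sham 1 of 17 was past 2-fold, against 3.5% of all genes, and in the other comparisons none was. With 1 gene called, nothing was read about these partners as a set. The gene was Cd36, a scavenger receptor, at a log2 ratio of -1.54, with 351, 425, 182, 140 and 142 CPM in the 5 groups. Tlr4, the receptor of calprotectin, was at 40.2, 30.4, 38.6, 50.6 and 39.8 CPM, and Ager, which encodes RAGE, at 1.01, 1.15, 0.779, 0.957 and 0.532 CPM. They are named for their role and not for a change.

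The genes most like a member were found by the Pearson correlation of log2(CPM + 10) over 43 pairs of a gate and a group with at least 20 cells, among 7660 genes. This is a description, since the pairs share a library and groups. The Csf3r gate, with at most 7 cells in a group, gave no pair, and the highest pair of S100a8 was at 291 CPM. The correlations of S100a8 therefore rest on the few cells with S100a8 outside that gate. For S100a8 the nearest genes were S100a9 (0.989), Cxcr2 (0.782), a chemokine receptor of neutrophils, Mmp9 (0.669), a neutrophil gelatinase, Ppfibp2 (0.632) and Lhfpl2 (0.631). For S100a4 they were Gm42674 (0.996), S100a6 (0.942), Zyx (0.886), which encodes zyxin of focal adhesions, Capzb (0.879), an actin capping protein, and Fxyd5 (0.878). For S100a6 they were Gm42674 (0.948), S100a4 (0.942), Zyx (0.919), Anxa2 (0.890), which encodes annexin A2, and Gm12481 (0.866). S100a4 correlated with S100a11 at 0.671 and with S100a10 at 0.387, and with S100a8 at -0.15.

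Gm42674, a predicted gene without a position in the tables used here, followed S100a4 cell by cell. It had 11.3 reads per 100 reads of S100a4 and was listed in 2779 cells, of which 2577 also had S100a4. In these cells the log2 CPM of both had a Pearson correlation of 0.889. Whether reads of S100a4 were counted under Gm42674 was not tested, and no S100a4 value was corrected for it.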

How the data were processed

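The authors deposited raw counts (reads per gene and barcode, not molecules) for barcodes kept by an inflection point, with distribution-based error correction (DBEC) and hashtags assigned. The submitters' processing notes name cutadapt 2.10, Bowtie2 2.4.2 and GRCm38. Of 5363 columns, 8 without a hashtag and 40 named doublets (0.746%) were left out of the comparisons. No doublet caller was run. The study's methods name a larger share of cells as doublets than these columns make up, so doublets may remain among the cells kept. The strand setting of the counting was not given in the sources used here. Cells had at least 500 genes and a mitochondrial share of at most 0.4. Python 3.11.15 with numpy 2.4.6, scipy 1.17.1 and pandas 2.3.3 was used. Gates were limits on the CPM of single genes, taken in order: Cd79a 500, Csf3r 500 with Csf1r under 50 and Ccr2 under 200, Cd209a 200 with Ly6c2 and Lyve1 under their limits, Csf1r 200 with Lyz2 1000, then Ace 200, Ly6c2 500, Lyve1 200 and Ccr2 1000, and for other cells Cd3g, Trbc2 or Nkg7 200. 39 cells that met the limits of B cells and macrophages were set aside. Reads were summed per gate and group. With 1 sample per group no test was made: intervals are 95% exact Poisson or Clopper-Pearson and cover counting error only, and reads amplified from 1 molecule make them too narrow. Ratios had 10 CPM added, and genes with at least 50 CPM in either group gave the background. Only the ratio of summed reads was run on simulated sums, for WT TAC against WT sham in the monocyte and macrophage gate. There 200 of 3453 genes were changed by well over 2-fold, and 100% of them were recovered past 2-fold. With changes of that size and sums of that depth, little else could come out. Gating, cell filtering, the lowest listed values and the spread between hearts were not part of it. Named genes were the members, the other S100 genes, listed partners past 2-fold and the 5 genes most like S100a8, S100a4 and S100a6. The members, lists and gates were chosen with earlier results of these data known. Upstream windows and positions came from RefSeq (GRCm38.p6).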

Additional observations from a re-analysis of the deposited data

Results flagged for a closer look

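TAC against sham went in opposite directions in WT and CD3e-/- mice for 5 members in the monocyte and macrophage gate. With 1 sample per group the differences were not tested. The log2 ratios in WT and CD3e-/- mice were 0.083 and -0.031 for S100a4, 0.18 and -0.029 for S100a6, 0.29 and -0.054 for S100a11, -0.17 and 0.12 for S100a1, and -0.016 and 0.21 for S100a13. With the mean of single-cell CPM, the ratios of S100a4 (0.37 and 0.29), S100a6 (0.42 and 0.34), S100a11 (0.53 and 0.47), S100a13 (0.069 and 0.24) and S100a1 (-0.18 and -0.035) had 1 direction in both genotypes. S100a8 and S100a9 were not set side by side in this way, since WT sham was listed at 0.

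The 40 columns named doublets, which entered no comparison, were above the level of WT sham cells for 5 members. S100a8 was at 6.21 CPM from 1 column, against 0. S100a6 was at 757 CPM against 619 CPM, S100a11 at 554 CPM against 453 CPM, S100a1 at 62.4 CPM against 51.6 CPM and S100a13 at 85.0 CPM against 76.0 CPM. These columns can join cells of any 2 groups, so WT sham is a low reference for them.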

How the results depend on the processing

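No paired analysis was possible because each group was 1 sample without replicates. The number of members past 2-fold in the monocyte and macrophage gate was 2 in WT TAC against WT sham, in CD3e-/- sham against WT sham and in CD8-depleted TAC against WT TAC, and it was 0 in each of these with 50 CPM added and, as an alternative added after seeing the data, without neutrophil-marker cells. It was also 0 in CD3e-/- sham against WT sham when the cell with the most reads of the gene was left out in each group, added later. It was 0 in the first 2 of them when only members with at least 50 CPM were counted, also added later, and 0 in the third with the gate limits doubled. In CD3e-/- TAC against CD3e-/- sham it was 0, but 1 with median-of-ratios size factors and with 1 CPM added, and 2 with the gate limits halved or doubled. With 2 alternatives added later it was 1 with the gates weighted by their read shares in WT sham, and 2 without the top cell of each group, where S100a8 and S100a9 turned from -0.59 and -0.96 to 1.29 and 1.20. In CD3e-/- TAC against WT TAC it was 0, and 1 with the gates so weighted (S100a9 at -1.11). S100a8 turned there from -0.22 to 0.11 with the mean of single-cell CPM, 0.25 without neutrophil-marker cells and 0.16 without the top cell, and S100a9 from -0.52 to 0.048 without neutrophil-marker cells. Without neutrophil-marker cells the ratios of S100a8 and S100a9 between CD8-depleted TAC and WT TAC reversed to -0.12 and -0.18. For the other members the mean of single-cell CPM moved the ratios of TAC against sham more than any other planned setting in S100a4, S100a6, S100a10 and S100a11 of both genotypes. The ratios of these 4 genes between CD3e-/- and WT mice, after sham surgery and after TAC, kept their direction in 10 of 10 alternatives. The causes were not tested. The share of S100a8 reads in the Csf3r gate was 35.9%, and 14.2% with halved limits, 46.5% with doubled limits, 36.6% as a sum of single-cell CPM and 95.6% with Csf3r above Csf1r; for S100a9 it was 35.0%, and 14.9%, 47.5%, 35.5% and 97.7%. The share of WT TAC monocytes and macrophages with a read, thinned to 20000 reads per cell, was 0.719% for S100a8 and 0.359% for S100a9 and ran from 0.541% to 0.798% and from 0.180% to 0.399% over the alternatives. Depth limits what a listed 0 means, since the lowest listed value of S100a8 corresponds to 256 CPM at the median depth of the monocyte and macrophage gate.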
